A study of Homo sapiens with 26 samples.

Results

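The genes GJA3, CRTAM, QPCT, MYO15B, LAGE3, C9orf152, MIER1 and C1orf116 are 8 of the 58735 genes measured in 26 messenger RNA libraries of 3 established human cancer cell lines. They were selected on measured values of these libraries, as genes whose difference between large and small tetraploid clones was unlike in DLD1 and HCT116. The size differences of DLD1 and HCT116, and the gap between them, are therefore given as a description with no test. Tests are given for CAL51, for the diploid libraries, and for genes related or adjacent to the 8, which the description of the selection does not name.

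DLD1 and HCT116 are colorectal cancer lines and CAL51 is a triple negative breast cancer line, all near-diploid. Tetraploid (4N) cells were made by making cell division fail for 20 hr, with 1.5 µg/mL dihydrocytochalasin in DLD1 and with 75 µM blebbistatin in HCT116 and CAL51. After wash-out and 48 hr of recovery, single cells were grown into clones, and the 4N clones were labelled small or large. Each line gave 1 library of its untreated parent and 2 of diploid (2N) clones. The 4N libraries came from 3 small and 4 large clones of DLD1, from 3 of each size of HCT116, and from 3 large clones but 1 small clone of CAL51. Only the 4N clones carry a drug label, so drug and ploidy cannot be told apart, and the drug differs between DLD1 and the other lines. Every 4N or 2N library is 1 clone grown from 1 cell, so the spread within a class is the spread between clones.

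Levels are fragments per kilobase of gene length, scaled to library depth (FPKM), which correct for gene length and can be compared between genes. Recovered depth was 23.5 to 44.5 M reads per library, and 1 read in a gene of 1 kb was worth 0.0246 to 0.0400 FPKM. Mitochondrial genes took 2.42% to 10.1% of the reads. Of 10 colon epithelium markers, 8 had a mean of at least 1 FPKM in DLD1 and 5 in HCT116, while CDX1 stayed at or below 0.0610 FPKM in DLD1. Of 10 breast epithelium markers, 5 reached that level in CAL51, and 5 also in DLD1 and in HCT116, so the count does not set CAL51 apart. KRT8, KRT18, KRT19 and EPCAM stand on both lists, and KRT5 and KRT14 were at 0 FPKM in every CAL51 library. Of 6 fibroblast markers, 4 had a mean of at least 1 FPKM in CAL51, against 0 in DLD1 and 1 in HCT116. Bulk RNA does not tell fewer expressing cells from less RNA per cell.

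The 8 genes come from unrelated families. GJA3 encodes a connexin, a subunit of gap junction channels best known from lens fibres. CRTAM is an immunoglobulin-family receptor of activated T and NK cells that binds the adhesion molecule CADM1. QPCT is a secreted enzyme that turns an N-terminal glutamine into pyroglutamate, which protects peptide hormones and chemokines from degradation. LAGE3 is a subunit of the KEOPS complex, which modifies transfer RNAs. MYO15B is an unconventional myosin related to the hearing myosin MYO15A, and MIER1 is a nuclear corepressor that recruits the histone deacetylases HDAC1 and HDAC2. C1orf116 encodes an androgen-regulated protein of epithelial cells, and C9orf152 is an open reading frame.

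The sequences just upstream of the RefSeq starts of genes that differed in DLD1 show how unlike these starts are. RefSeq promoter windows were found for 7 of the 8 genes (GRCh38.p14), and the 250 bases before each RefSeq start are printed 5′ to 3′ on the gene's strand, with every CpG dinucleotide as CG in capitals. The RefSeq start can differ from the start of the gene's span in the deposited table. The QPCT window lies inside its deposited span, which begins at 37342827, and the C9orf152 window overlaps its span, which ends at 110208189. For MYO15B the bases after the RefSeq start were not found in the annotated transcripts of the gene. The first 3 belong to genes with lower levels in small DLD1 clones, at chr13:20161053-20161302 on the minus strand, chr2:37344380-37344629 on the plus strand and chrX:154479282-154479531 on the minus strand.
GJA3: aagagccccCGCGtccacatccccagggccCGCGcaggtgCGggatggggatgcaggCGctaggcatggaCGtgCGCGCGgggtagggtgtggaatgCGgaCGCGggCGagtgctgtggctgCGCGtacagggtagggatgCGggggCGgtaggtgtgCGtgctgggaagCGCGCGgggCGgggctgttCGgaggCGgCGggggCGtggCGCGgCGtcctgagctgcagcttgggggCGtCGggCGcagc
QPCT: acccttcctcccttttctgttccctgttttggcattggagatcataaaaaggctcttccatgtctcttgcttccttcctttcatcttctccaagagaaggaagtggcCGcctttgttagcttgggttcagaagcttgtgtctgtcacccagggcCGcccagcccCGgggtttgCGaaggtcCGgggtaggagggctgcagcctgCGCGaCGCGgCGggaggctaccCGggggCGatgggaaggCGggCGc
LAGE3: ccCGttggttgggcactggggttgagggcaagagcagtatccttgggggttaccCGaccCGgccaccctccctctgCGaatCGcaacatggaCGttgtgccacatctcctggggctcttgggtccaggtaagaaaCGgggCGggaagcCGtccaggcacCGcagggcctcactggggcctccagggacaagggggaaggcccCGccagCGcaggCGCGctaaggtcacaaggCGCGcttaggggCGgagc

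The next pair belongs to genes with higher levels in small DLD1 clones, at chr17:75587550-75587799 on the plus strand and chr9:110208160-110208409 on the minus strand. The last window, of C1orf116 at chr1:207032757-207033006 on the minus strand, is shown because it holds a single CpG.
MYO15B: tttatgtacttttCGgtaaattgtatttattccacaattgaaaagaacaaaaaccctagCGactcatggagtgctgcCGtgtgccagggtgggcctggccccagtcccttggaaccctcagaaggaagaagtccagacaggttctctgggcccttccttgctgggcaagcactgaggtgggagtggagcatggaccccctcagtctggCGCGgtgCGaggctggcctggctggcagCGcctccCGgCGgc
C9orf152: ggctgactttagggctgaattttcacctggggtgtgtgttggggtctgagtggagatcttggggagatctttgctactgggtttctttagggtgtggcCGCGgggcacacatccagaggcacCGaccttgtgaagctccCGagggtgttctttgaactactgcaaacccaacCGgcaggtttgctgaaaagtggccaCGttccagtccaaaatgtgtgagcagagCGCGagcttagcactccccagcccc
C1orf116: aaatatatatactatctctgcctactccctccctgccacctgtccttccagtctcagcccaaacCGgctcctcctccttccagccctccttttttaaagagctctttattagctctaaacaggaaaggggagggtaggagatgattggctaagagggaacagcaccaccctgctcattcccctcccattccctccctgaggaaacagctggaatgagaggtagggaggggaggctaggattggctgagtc

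The GJA3 window held 33 CpG and 74.8% G or C, and 91.9% of 35116 promoters held fewer CpG. LAGE3 held 17 CpG and QPCT 14, against a median of 11 over all promoters. MYO15B held 9 CpG and C9orf152 held 8, so both lay under that median. The MIER1 window (not printed) held 31. C1orf116 held 1, and 6.06% of promoters held fewer. Both strands were searched for 5 motifs. The GC box GGGCGG, present in 42.6% of promoters, lay in the windows of GJA3, QPCT, LAGE3 and MIER1. The sequence CCAAT, present in 32.0%, lay in those of QPCT and C1orf116. TATAAA (10.7% of promoters), CACGTG (6.34%) and CCGGAAG (8.52%) were not found in any of the 7 windows. GGGCGG holds a CpG, so that motif and the CpG count are not separate measures.

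In DLD1, GJA3, CRTAM, QPCT and LAGE3 had lower levels in the small clones than in the large clones, and MYO15B and C9orf152 had higher levels. For these 6 genes the small and large clones did not overlap, and the small clones also lay outside the range of the other 7 DLD1 libraries. Over all 14835 tested genes, 11.5% had no overlap between large and small DLD1 clones and 5.42% had small clones outside the other 7 libraries. The selection used these clones, so nothing is read from the counts. MIER1 and C1orf116 overlapped between the classes in DLD1, which goes against a common label of genes changed in DLD1 by size. In HCT116, C1orf116 was the 1 gene of the 8 whose large and small clones did not overlap, against 14.3% of tested genes.

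**Figure D1:**
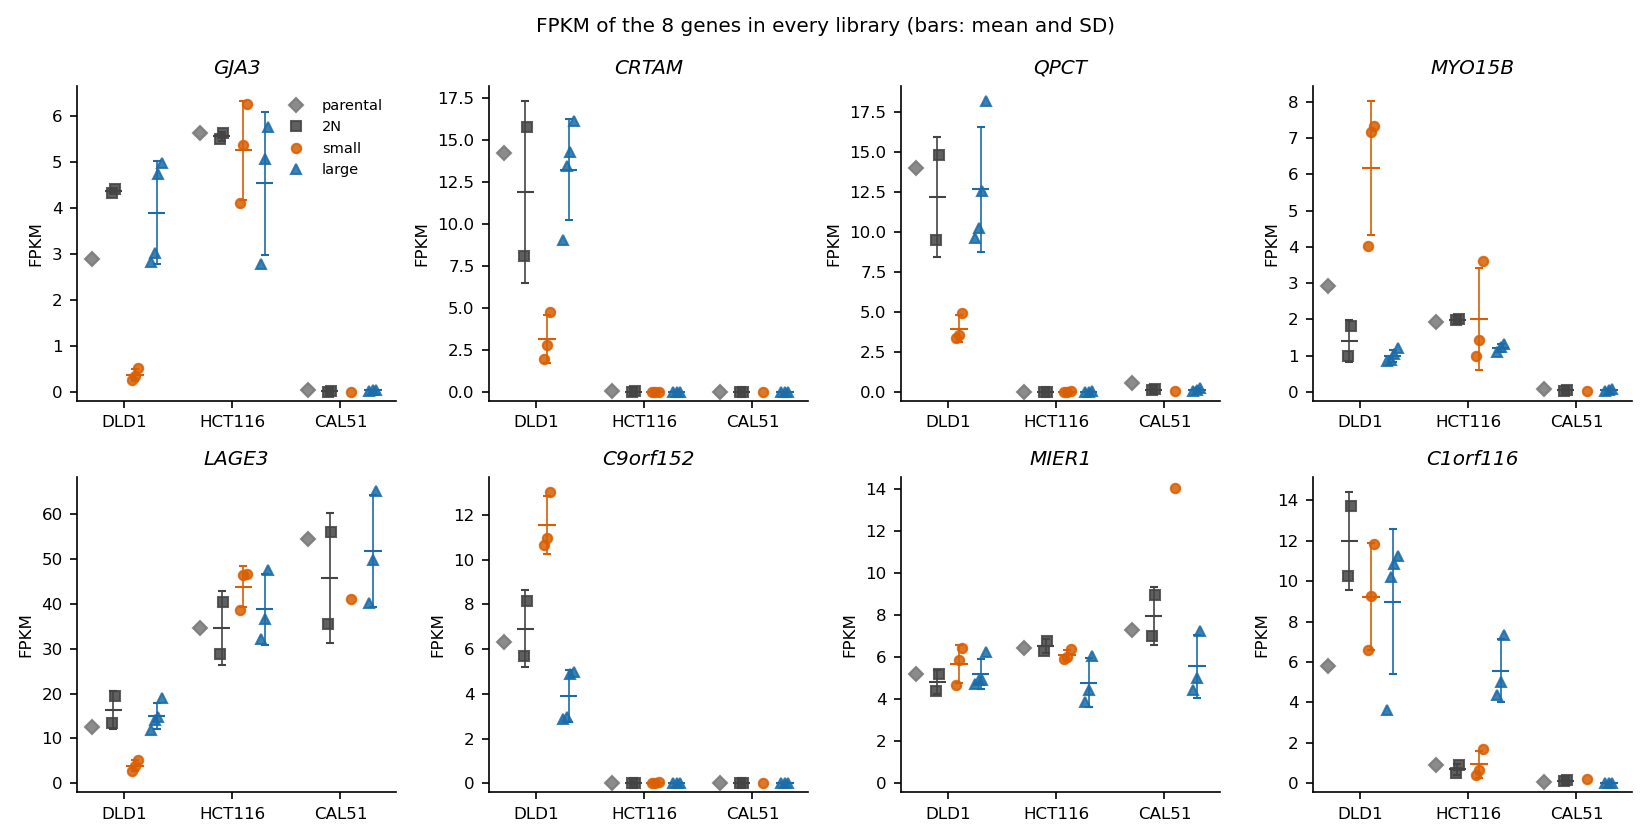
FPKM of each gene in every library (y axis, linear, from 0), by cell line (x axis) and class (parental, 2N clones, small and large 4N clones); bars are the mean and SD of a class. Small DLD1 clones sit at 0.263 to 0.508 FPKM for GJA3, under every other DLD1 library, and the 3 large HCT116 clones sit at 4.38 to 7.34 FPKM for C1orf116, above every other HCT116 library.

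GJA3 (ENSG00000121743, chr13:20138255-20161049, minus strand, GRCh38) was at 0.336, 0.508 and 0.263 FPKM in small DLD1 clones 1 to 3. Large DLD1 clones 1 to 4 were at 2.83, 3.03, 4.98 and 4.74 FPKM. The 2N clones were at 4.33 and 4.40 FPKM and the parental library at 2.89. The range of the large clones held all 3 diploid libraries, and the small clones lay below all of them, with a mean of 0.369 ± 0.126 (SD, n = 3) against 3.89 ± 1.12 (SD, n = 4), a 10.5-fold difference in mean FPKM. In HCT116 the gene was expressed without such a gap, at 5.37, 4.11 and 6.27 FPKM in small clones and 5.06, 5.77 and 2.78 in large clones. CAL51 libraries were at or below 0.0433 FPKM.

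CRTAM (ENSG00000109943, chr11:122838500-122872639, plus strand) was at 1.97, 4.74 and 2.77 FPKM in the small DLD1 clones. The large clones were at 14.3, 13.5, 16.2 and 9.03 FPKM, the 2N clones at 8.10 and 15.8, and the parental library at 14.2. The mean was 4.19-fold higher in large clones than in small ones. HCT116 libraries held 0 to 3 reads of CRTAM, and all CAL51 libraries were listed at 0. The receptor is known from lymphocytes, yet PTPRC, CD3D, CD3E and CD3G did not exceed 0.0114 FPKM in any DLD1 library. Of 13 T and NK cell markers, 0 had a mean of 1 FPKM or more in DLD1 and 10 stayed under 0.1 FPKM in every library. Their summed level was 0.398 to 0.928 FPKM in small clones and 0.457 to 0.936 in large clones.

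QPCT (ENSG00000115828, chr2:37342827-37373322, plus strand) was at 3.37, 4.93 and 3.58 FPKM in the small DLD1 clones. The large clones were at 12.6, 18.2, 10.3 and 9.61 FPKM, the 2N clones at 9.52 and 14.8 and the parental library at 13.996. Every small clone lay under every other DLD1 library, and the large-clone mean was 3.20-fold higher. HCT116 held 0 to 3 reads per library. CAL51 was low, from 0.0257 FPKM in its small clone to 0.555 in its parental library.

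LAGE3 (ENSG00000196976, chrX:154477769-154479257, minus strand) was at 3.89, 2.76 and 5.21 FPKM in the small DLD1 clones. The large clones were at 14.1, 18.9, 11.98 and 14.8 FPKM, the 2N clones at 19.4 and 13.4, and the parental library at 12.7. The small clones stood apart from the rest, with a 3.78-fold higher mean in large clones. Both other lines expressed LAGE3 at higher levels in every library, from 28.8 to 47.7 FPKM in HCT116 and from 35.6 to 65.1 FPKM in CAL51. Small HCT116 clones were at 46.6, 46.4 and 38.6 FPKM and large ones at 47.7, 36.6 and 32.2, so the classes overlapped there. LAGE3 shares 11 exon bases with PLXNA3 on the opposite strand. The libraries were directional, and the strand setting of the counting is not given in the sources used here.

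MYO15B (ENSG00000266714, chr17:75588058-75626501, plus strand) was higher in the small DLD1 clones, at 4.03, 7.15 and 7.34 FPKM. The large clones were at 0.870, 1.05, 1.20 and 0.853 FPKM, the 2N clones at 0.989 and 1.81, and the parental library at 2.91. The small-clone mean was 6.21-fold the large-clone mean, and of the diploid libraries 1 2N clone lay within the range of the large clones and the other 2 libraries lay between the classes. HCT116 small clones were at 1.42, 3.60 and 0.974 FPKM and large clones at 1.10, 1.22 and 1.31. There 1 small clone was high and the others overlapped the large clones. CAL51 libraries were at or below 0.0774 FPKM.

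C9orf152 (ENSG00000188959, chr9:110190048-110208189, minus strand) was at 10.6, 13.0 and 10.98 FPKM in the small DLD1 clones. The large clones were at 2.85, 4.96, 4.88 and 2.95 FPKM. The 2N clones, at 8.15 and 5.69, and the parental library, at 6.31, all lay between the classes. The small-clone mean was 2.95-fold the large-clone mean. HCT116 and CAL51 held at most 0.0385 FPKM.

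MIER1 (ENSG00000198160, chr1:66924895-66988619, plus strand) was at 4.69, 6.44 and 5.86 FPKM in the small DLD1 clones and at 4.91, 6.25, 4.71 and 4.90 in the large ones. These ranges overlapped and also held the 2N clones at 5.21 and the parental library at 5.17, with the other 2N clone at 4.39. Small HCT116 clones were at 6.39, 5.98 and 5.89 FPKM and large ones at 3.87, 6.07 and 4.42, which overlapped as well. C1orf116 (ENSG00000182795, chr1:207018521-207032756, minus strand) was at 6.59, 11.9 and 9.27 FPKM in the small DLD1 clones and at 10.9, 3.62, 10.2 and 11.2 in the large ones. In HCT116 it was at 0.420, 1.68 and 0.680 FPKM in the small clones and at 4.99, 7.34 and 4.38 in the large ones. The HCT116 diploid libraries, at 0.488 to 0.887 FPKM, lay with the small clones, and the large-clone mean was 6.001-fold higher.

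**Figure D2:**
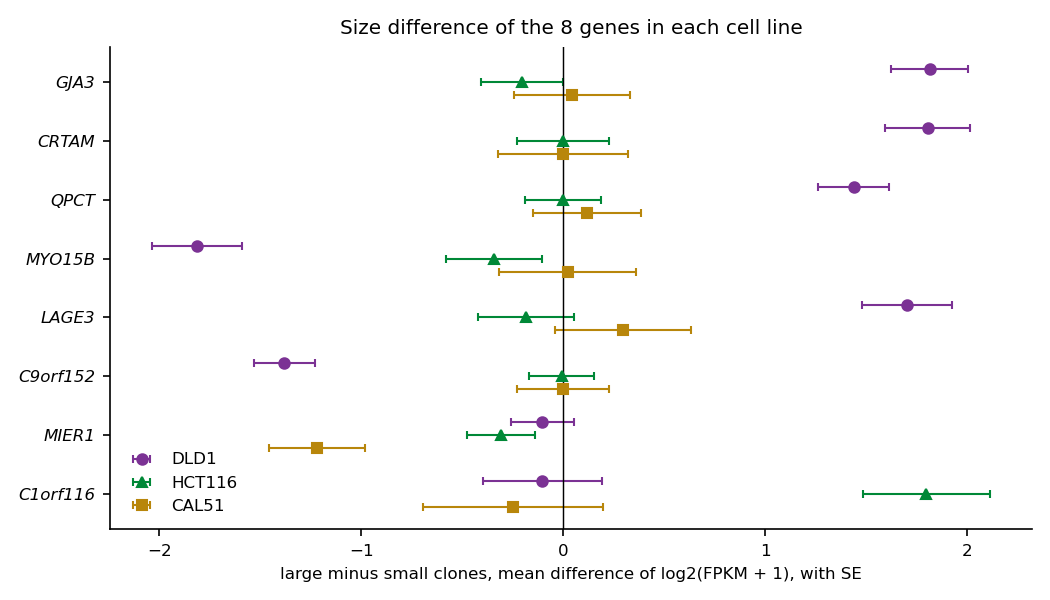
Difference between the means of large and small clones in log2(FPKM + 1) (x axis) for each gene (y axis) in DLD1, HCT116 and CAL51; bars are the standard error of the limma fit. GJA3, CRTAM, QPCT and LAGE3 lie at 1.44 to 1.81 in DLD1, MYO15B and C9orf152 at -1.81 and -1.38, C1orf116 at 1.80 in HCT116 and MIER1 at -1.22 in CAL51.

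On the log2(FPKM + 1) scale, which understates changes of low genes, the large minus small difference in DLD1 was 1.81 for GJA3, 1.80 for CRTAM, 1.70 for LAGE3, 1.44 for QPCT, -1.38 for C9orf152 and -1.81 for MYO15B. It was -0.10 for both MIER1 and C1orf116. In HCT116 it was -0.20 for GJA3, -0.19 for LAGE3, -0.34 for MYO15B, -0.31 for MIER1 and 1.80 for C1orf116. The 3 genes that HCT116 barely expresses, CRTAM, QPCT and C9orf152, cannot show a fall there. The measure behind the selection was not given. By the DLD1 minus HCT116 gap relative to its limma error, 7 of the genes ranked between 4 (GJA3) and 47 (C1orf116) of 14835. MIER1 was at rank 6748 with a gap of 0.21, beside TBP at -0.16 and CYSTM1 at -0.28, so its values did not meet the description of the selection.

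The description of the selection does not name CAL51. MIER1 did not meet that description, so its CAL51 test cannot be called independent of the choice. CAL51 has 1 small clone, so each CAL51 difference sets that clone against the large ones. The fit assumed that clone to vary like the other groups. On that assumption 1 of the 8 genes passed, as did 1.52% of tested genes. MIER1, the histone deacetylase corepressor, had 14.01 FPKM in the small clone and 4.43, 7.24 and 5.00 FPKM in the large clones. The 2N clones were at 8.93 and 6.98 FPKM and the parental library at 7.30. The small clone lay above all 6 other CAL51 libraries. The log2 difference, large minus small, was -1.22 ± 0.24 (SE; 95% interval -1.72 to -0.72; limma adjusted p = 0.0120), and MIER1 was lower in 3 of 3 large clones. With CAL51 fitted alone the difference was again -1.22, but MIER1 and the other members missed the threshold. Few of all tested genes passed in that fit, so nothing is read from it for the 8 genes.

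LAGE3 was the other gene of the 8 with a high level in CAL51, at 41.2 FPKM in the small clone and 65.1, 40.3 and 49.9 in the large clones. The small clone lay within the range of the large ones. The difference was 0.30 (95% interval -0.41 to 1.00, adjusted p = 0.827). The remaining 6 genes were low in CAL51 and did not pass. C1orf116 had 0.214 FPKM in the small clone, from 34 reads, and 0.0179 to 0.0271 in the large clones, from 3 to 5 reads (difference -0.25, adjusted p = 0.928).

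Next, all 4N clones of a line, with equal weight per clone, were compared with its 2N clones. In DLD1 and HCT116 the 4N arm consists of the clones that the selection used, so for these lines the comparison is a description and nothing is read from its counts. By limma 0 of the 8 genes passed in DLD1, HCT116 or CAL51, where 0.00674%, 0.108% and 0.155% of tested genes did, and limma voom also gave 0 in each line. At an unadjusted p below 0.05 there were 5 of the 8 in DLD1, 1 in HCT116 and 0 in CAL51, where 4.59%, 8.73% and 4.46% of tested genes lay below it. GJA3 differed by -0.94 on the log2 scale in DLD1, with means of 0.369 FPKM in small clones, 3.89 in large clones and 4.37 in 2N clones. C1orf116 differed by 1.05 in HCT116. In CAL51 MIER1 was at -0.16 (95% interval -0.54 to 0.22, adjusted p = 1) and LAGE3 at 0.11 (-0.42 to 0.63, adjusted p = 1).

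The diploid libraries, which enter no size difference, showed how the lines differ at baseline. CRTAM had a mean of 12.7 ± 4.06 FPKM (SD, n = 3) in the DLD1 diploid libraries, QPCT of 12.8 ± 2.86 and C9orf152 of 6.72 ± 1.28. In HCT116 those genes were at 0.0172, 0.00379 and 0.0228 FPKM. All 8 genes passed the filter on low values, but CRTAM, QPCT and C9orf152 did so through DLD1 libraries alone, and GJA3, MYO15B and C1orf116 through DLD1 and HCT116. Their gaps to a line without expression follow from that filter and are given with no test. With those genes included, 7 of the 8 passed between DLD1 and HCT116, 8 of 8 between DLD1 and CAL51 and 3 of 8 between HCT116 and CAL51. Over all tested genes the shares were 59.9%, 59.3% and 62.3%, and nothing is read from the members' counts.

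C1orf116 was high in the diploid libraries of DLD1 (9.93 ± 3.95 FPKM, SD, n = 3), low in HCT116 (0.753 ± 0.230) and lowest in CAL51 (0.102 ± 0.0489). The step from DLD1 to HCT116 was 2.58 on the log2 scale. Among the diploid libraries only those of DLD1 reached the 1 FPKM of the filter, so this gap is given with no test. Large HCT116 clones, at 4.38 to 7.34 FPKM, overlapped the DLD1 diploid libraries, which ran from 5.82 to 13.7 FPKM.

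LAGE3 ran the other way, with 15.2 ± 3.72 FPKM in DLD1, 34.6 ± 5.83 in HCT116 and 48.8 ± 11.48 in CAL51 (SD, n = 3 each). DLD1 was lower than HCT116 by 1.15 on the log2 scale (-1.15, adjusted p = 0.00143) and lower than CAL51 (-1.62, adjusted p = 0.000185). The difference between HCT116 and CAL51 missed the threshold (-0.47, 95% interval -0.95 to 0.02, limma adjusted p = 0.0872). It passed without CAL51 2N clone 1 (-0.67, adjusted p = 0.0158). GJA3 was at 5.58 ± 0.0787 FPKM in HCT116, 3.87 ± 0.851 in DLD1 and 0.0220 ± 0.0217 in CAL51. The gap between DLD1 and HCT116 was -0.45 (adjusted p = 0.0129) and was lost with the 2N clones alone (adjusted p = 0.380).

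MYO15B in the diploid libraries was at 1.90 ± 0.964 FPKM in DLD1 and 1.97 ± 0.0462 in HCT116 (difference -0.09, 95% interval -0.54 to 0.37, adjusted p = 0.749). The CAL51 mean was 0.0490 FPKM. MIER1 had 4.92 ± 0.462 FPKM in DLD1, 6.51 ± 0.239 in HCT116 and 7.73 ± 1.04 in CAL51. DLD1 was below CAL51 (-0.56, adjusted p = 0.00151) and below HCT116 (-0.34, adjusted p = 0.0183). The second of these missed the threshold with the 2N clones alone (0.152), without DLD1 2N clone 1 (0.0639) and without HCT116 2N clone 2 (0.0621).

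Related genes were examined to see whether a family moved along with its member. Of 103 listed relatives and partners, 102 were in the table and 60 were tested. Between large and small clones 0 of 60 passed in DLD1, where 0.472% of tested genes did, and 0 of 60 in HCT116, where 0.445% did (limma). At an unadjusted p below 0.05 there were 4 in DLD1 and 7 in HCT116, where 6.65% and 15.4% of tested genes lay below it, and voom also called 0 in each. The median of the 60 differences was 0.00 in DLD1 and 0.00 in HCT116, next to 0.00 over all tested genes in both lines.

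Of 20 connexins, 5 were tested and lay between -0.09 and 0.23 in DLD1. GJB2, the skin and inner ear connexin encoded next to GJA3, was at 22.1 ± 2.74 FPKM in small and 26.1 ± 4.23 in large DLD1 clones (0.23, adjusted p = 1). GJA1, a widely expressed connexin, was listed at 0 in every DLD1 library. Lens fibre markers summed to 1.12 to 1.76 FPKM in small and 1.52 to 2.13 in large DLD1 clones. Over the DLD1 libraries BFSP1 was at 0.429 to 1.16 FPKM and CRYGS at 0.304 to 0.651. The part of the lens fibre markers in the GJA3 values was not tested.

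CADM1, the ligand of CRTAM, was at 2.31 ± 0.374 FPKM in small and 3.92 ± 3.43 in large DLD1 clones (0.33, adjusted p = 1), and was listed at 0 in all HCT116 libraries. The related adhesion receptors PVR and NECTIN2 lay at 25.4 to 48.7 and 26.2 to 38.1 FPKM over the DLD1 libraries. QPCTL, the Golgi paralogue of QPCT, was at 9.60 ± 1.20 FPKM in small and 8.24 ± 1.39 in large DLD1 clones (-0.20, adjusted p = 1). CD47, whose binding site for SIRPA is modified by QPCTL, was at 8.36 ± 3.04 in small and 3.97 ± 0.564 in large DLD1 clones (-0.86 ± 0.30, adjusted p = 0.395), so it did not pass.

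The partners of LAGE3 in the KEOPS complex had like levels in both DLD1 classes. OSGEP, its catalytic subunit, was at 6.30 ± 0.943 FPKM in small and 6.79 ± 1.16 in large clones. TP53RK, the kinase subunit, was at 7.55 ± 0.286 and 7.85 ± 0.642. TPRKB, which binds TP53RK, was at 12.8 ± 1.15 and 12.4 ± 0.446, and GON7 was at 8.52 ± 0.137 and 7.80 ± 0.947. The 6 tested genes of this list lay between -0.12 and 0.15 in DLD1, beside 1.70 for LAGE3. YRDC, which acts a step before the complex, was at 22.9 ± 1.80 and 23.0 ± 3.83 FPKM.

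Of 24 other unconventional myosins 13 were tested, from -0.73 to 0.29 in DLD1. MYO15A, the closest relative of MYO15B, did not exceed 0.0111 FPKM in DLD1. The abundant MYO1C was at 52.6 ± 6.50 FPKM in small and 47.8 ± 6.68 in large clones. Among the MIER1 partners, HDAC1 was at 42.3 ± 6.64 and 45.1 ± 6.89 FPKM and HDAC2 at 13.8 ± 0.576 and 13.7 ± 2.40 in small and large DLD1 clones. MIER2 was at 3.29 ± 0.572 and 3.50 ± 0.251, and MIER3 at 5.70 ± 0.959 and 5.89 ± 0.430. None of these myosins and corepressor genes passed the threshold in DLD1. Of 15 epithelial genes listed beside C1orf116 and C9orf152, 14 were tested and 0 passed in DLD1 or HCT116. EPCAM was at 326 ± 24.0 and 287 ± 17.4 FPKM in small and large DLD1 clones.

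**Figure D3:**
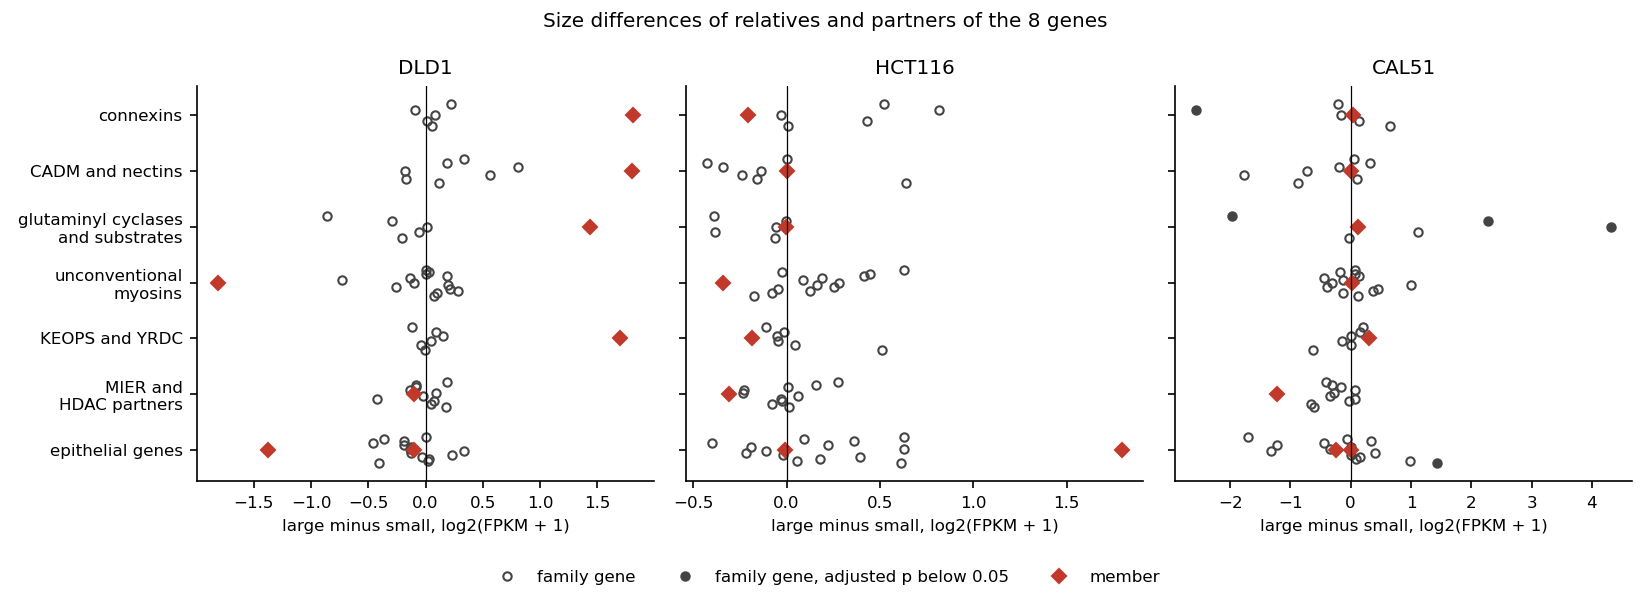
Large minus small difference in log2(FPKM + 1) (x axis) of the tested relatives and partners of each gene (circles, filled where the limma adjusted p is below 0.05) and of the 8 genes (diamonds), by family (y axis) in DLD1, HCT116 and CAL51; the x axes differ in range. The 60 relatives lie between -0.86 and 0.81 in DLD1, with 0 filled circles there or in HCT116 and 5 in CAL51.

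The single small CAL51 clone has no spread of its own, so nothing is read from how many of the 60 relatives passed against it. CX3CL1, a chemokine, had 2.83 FPKM in the small clone and 18.3 ± 6.54 (SD, n = 3) in the large clones (2.28 ± 0.34 SE, adjusted p = 0.00124). NTS, the precursor of neurotensin, was at 0.201 and 36.5 ± 34.0 (4.32 ± 0.89, adjusted p = 0.0176), and ST14, an epithelial membrane protease, at 0.853 and 4.01 ± 0.512 (1.43 ± 0.30, adjusted p = 0.0194). CD47 was lower in large clones, at 28.4 and 6.50 ± 0.782 FPKM (-1.98 ± 0.45, adjusted p = 0.0324). QPCT itself stayed at or below 0.210 FPKM in those clones. With CAL51 fitted alone none of the 60 passed, but few of all tested genes did. CX3CL1 was the only relative that passed with voom. CX3CL1 missed the threshold with a pseudocount of 0.1 (adjusted p = 0.0836). NTS (0.0687) and CD47 (0.0993) missed it with the replicate block, and CD47 also without large clone 2 (0.0535).

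Genes next to the 8 were examined in the same way, over 47 tested protein-coding genes within 250 kb. In DLD1 0 of 47 passed by limma or voom, where 0.472% of tested genes passed by limma. Against 6.65% of tested genes, 1 neighbour lay at an unadjusted p below 0.05. That gene was PRKD3, a protein kinase D encoded 18.0 kb from QPCT. It was at 1.86 ± 0.378 FPKM in small and 4.67 ± 1.18 in large DLD1 clones, with 4.06 in the 2N clones, the same order as QPCT (0.97 ± 0.23, adjusted p = 0.0870). It passed without large clone 1 (1.14, adjusted p = 0.0369). In HCT116, which barely expresses QPCT, PRKD3 was at 1.86 ± 0.831 FPKM in small and 2.99 ± 0.606 in large clones (0.50, adjusted p = 0.346). In CAL51 its difference was -0.22. In DLD1 the 14 neighbours of LAGE3 lay between -0.44 and 0.21 and the 14 of MYO15B between -0.35 and 0.22. FAM50A and UBL4A, on either side of LAGE3, were among them, as were LLGL2 and RECQL5 around MYO15B. The neighbours of GJA3 lay between -0.06 and 0.23, and those of CRTAM between 0.14 and 0.28. TXN, the tested neighbour of C9orf152, was at 0.16.

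In HCT116 0 of 47 neighbours passed by limma or voom. At an unadjusted p below 0.05 there were 11 of the 47, while a lower share of all tested genes, 15.4%, lay below it. The 4 neighbours around C1orf116 lay between -0.05 and 0.39 beside 1.80 for C1orf116, which was selected on its value. Without HCT116 large clone 2, 4 neighbours passed (HSPA8, CEBPZ, UBL4A and JHY), none of them next to C1orf116. Over all 14835 tested genes 1035 then passed, against 66 with all clones, so nothing is read from these 4. Nothing is read from how many of the 47 passed against the single small CAL51 clone, which has no spread of its own. SLC35D1, a nucleotide sugar transporter encoded 10.7 kb from the end of MIER1, had 21.9 FPKM in the small clone, 3.88 ± 1.05 in the large clones and 5.41 in the 2N clones (-2.25 ± 0.33, adjusted p = 0.00103). MIER1 and SLC35D1 were thus both high in the same clone. WDR78, whose span ends 0.008 kb from that of MIER1 on its other side, was at -0.14 and did not pass. C4BPB, a complement regulator 56.1 kb from C1orf116, was at 2.25 FPKM in the small CAL51 clone and 0.248 ± 0.279 in the large clones (-1.40 ± 0.27, adjusted p = 0.0114). With CAL51 alone, where few of all tested genes passed, neither SLC35D1 nor C4BPB passed. C4BPB also missed the threshold with voom (adjusted p = 0.0617).

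**Figure D4:**
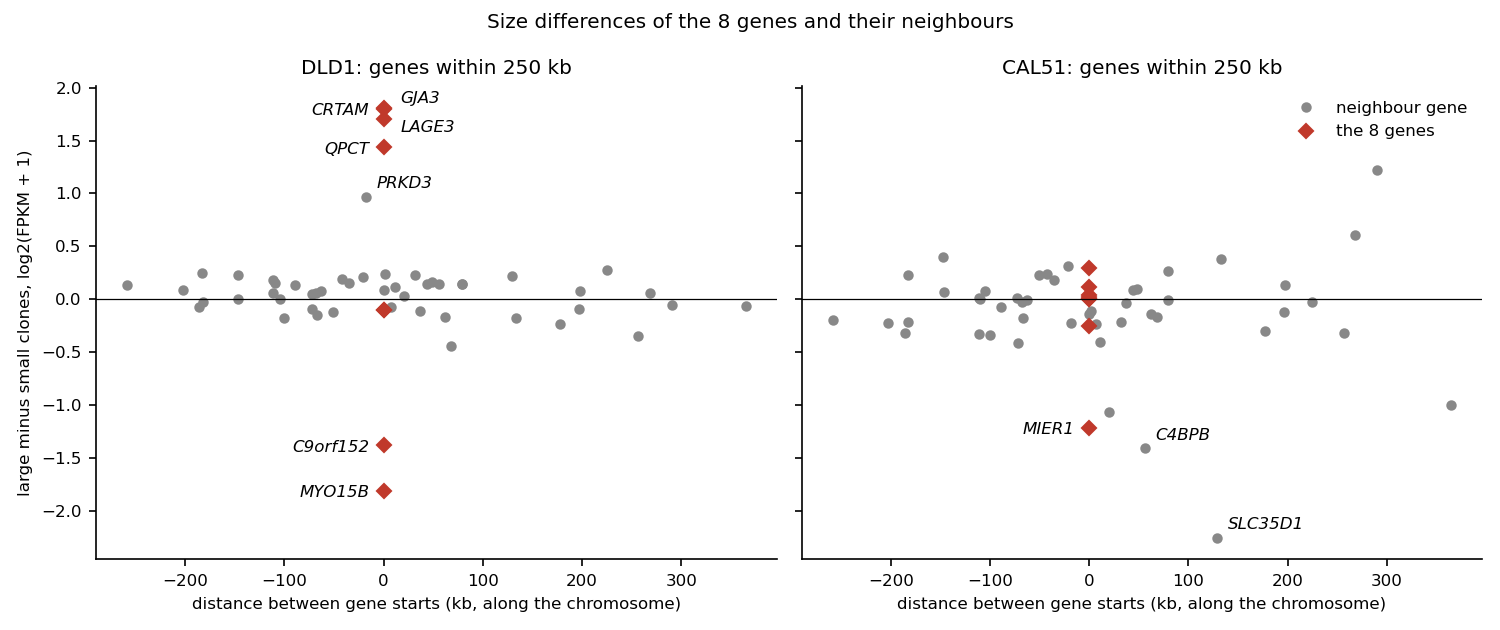
Large minus small difference in log2(FPKM + 1) (y axis) of tested genes whose spans lie within 250 kb of one of the 8 genes, by distance between gene starts in kb (x axis), in DLD1 and CAL51; diamonds at 0 are the 8 genes. In DLD1 PRKD3 beside QPCT, at 0.97, stands above the other neighbours, and in CAL51 SLC35D1 beside MIER1, at -2.25, stands below them.

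For each of the 8, the 3 protein-coding genes with the most similar levels were taken by Pearson's r of log2(FPKM + 1) over all 26 libraries. Libraries of a line share their background, so these r values mostly carry differences between lines, and they are given as a description. CRTAM was most like GPR1 (r = 0.987), IL20RA (0.981) and CST7 (0.974). QPCT was most like CEP76 (0.983), IL20RA (0.981) and RORA (0.977), so IL20RA, a cytokine receptor chain, was shared by both. C9orf152 was most like TFF1 (0.981), MAB21L4 (0.978) and DMRTA2 (0.973). TFF1, a secreted mucosal peptide, had a mean of 6.30 FPKM in DLD1 and 0.00589 in HCT116.

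C1orf116 was most like KRT80 (0.962), MACC1 (0.960) and HNF4A (0.949), a keratin, a colon cancer gene and an epithelial transcription factor, each with its highest mean in DLD1 and its lowest in CAL51. HNF4A had means of 4.96, 1.40 and 0.0969 FPKM in that order. GJA3 was most like HLA-B (0.930), PRKCH (0.927) and MDFI (0.926), all highest in HCT116. LAGE3 was most like NT5C3B (0.933), SLC25A29 (0.932) and KLHDC8B (0.911), all lowest in DLD1. MYO15B was most like GAS7 (0.867), ICA1 (0.860) and FUT2 (0.857), and MIER1 most like SAMD8 (0.851), DNMT3A (0.825) and MMP28 (0.791). MYO15B and MIER1 thus had the weakest matches of the 8.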

How the data were processed

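The authors deposited FPKM values for 58735 genes in 26 libraries. The submitters' processing notes name fastp, HISAT2 (2.0.5), featureCounts (1.5.0-p3), DESeq2 and the build GRCh38, and the labels' protocols give poly-A RNA and directional libraries. Multiplying FPKM by gene length and a factor per library gave whole reads, to within 0.01, for 100% of values; these served for depth and for limma voom. The test set was the 14835 genes that reached 1 FPKM in 3 or more libraries. Their log2(FPKM + 1) values were fitted in limma 3.58.1 (R 4.3.3), with 12 means for line and class, an intensity trend and 14 residual degrees of freedom; the 9 diploid libraries had a fit of their own. P values were two-sided and adjusted by Benjamini-Hochberg over all 14835 genes (threshold 0.05). The spread estimate is shared with the contrasts behind the selection, so each line was also fitted alone.

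The members and lists were chosen with earlier results of these data known. Beyond the 8 genes, the text names direct partners, relatives or neighbours past the threshold, up to 2 abundant relatives per family in DLD1, the nearest tested neighbours and the 3 most similar genes. PRKD3, CD47 in DLD1, and genes named for a left-out clone, were singled out after their values were seen. Some relatives that this rule takes are not reported here. The procedure was tested on simulated data. Promoters came from RefSeq (GRCh38.p14).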

Additional observations from a re-analysis of the deposited data

Results flagged for a closer look

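Groups of 4 clones occur only among the large DLD1 clones, where each of the 8 genes was checked for a clone far from the rest; chance marks about 1 in 20 groups. Large DLD1 clone 2 was the lowest for C1orf116, at 3.62 FPKM against 10.2 to 11.2 in the other 3 clones. The same clone was the highest for MIER1, at 6.25 FPKM against 4.71 to 4.91 in the others. Small DLD1 clones spanned both values, with 6.59 to 11.9 FPKM for C1orf116 and 4.69 to 6.44 for MIER1. Large clone 2 had the lowest depth of the DLD1 libraries, at 23.5 M reads, and the part of depth in these values was not tested.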

How the results depend on the processing

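The precision is limited by 1 to 4 clones per class, and in CAL51 by the single small clone. With CAL51 fitted alone, no member, relative or neighbour passed between large and small clones. Few of all tested genes passed in that fit, so nothing is read from this. The alternatives for relatives and neighbours in CAL51 were chosen after seeing the data. Relatives there numbered 1 with voom and 3 where a mean of at least 1 FPKM was asked of every line, and neighbours numbered 1 under both. That stricter filter left 2 members, LAGE3 and MIER1, among 9834 tested genes. In the diploid libraries 2 of them passed between DLD1 and HCT116, 2 between DLD1 and CAL51 and 0 between HCT116 and CAL51. Of the 9834 genes, 5772, 5593 and 5741 passed in that order, so nothing is read from the members' counts. With no filter on low values 1 relative (CD226) passed in HCT116. The cause was not tested, except that the stricter filter tests fewer genes.

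Leaving out 1 clone at a time gave 0 to 1 members in DLD1 4N against 2N (1 without large clone 3). It gave 0 to 1 relatives in DLD1 (MYO1D without large clone 1) and 0 to 1 neighbours (PRKD3 without the same clone). In HCT116 it gave 0 to 1 relatives (CLDN7 without small clone 2, ST14 without large clone 2) and 0 to 4 neighbours (4 without large clone 2). Of all 14835 tested genes, 154 passed without small clone 2 and 1035 without large clone 2, against 66 with all clones. Some differences near 0 changed sign as libraries were left out. C9orf152 ran from -0.011 to 0.0068 between CAL51 classes and from -0.34 to 0.11 in DLD1 4N against 2N. In CAL51 4N against 2N, MYO15B ran from -0.0012 to 0.018, LAGE3 from -0.22 to 0.43 and MIER1 from -0.46 (without the small clone) to 0.025. MYO15B ran from -0.33 to 0.16 between DLD1 and HCT116 diploid libraries. The described size differences also changed sign for some genes. In HCT116 GJA3 ran from -0.37 to 0.050 and MYO15B from -0.60 to 0.015, and in DLD1 C1orf116 ran from -0.30 to 0.23. With the parental library joined to the 2N clones, MYO15B in CAL51 4N against 2N was -0.0067.

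Clone numbers name the clones and are not known to pair them. Same-numbered small and large clones had deviations that correlated at 0.00, 0.09 and -0.06 in DLD1 and at 0.03, 0.16 and 0.16 in HCT116, where each small clone correlated best with its own number. With the number as a replicate block, MYO15B between CAL51 classes was -0.12 and 3 relatives passed in CAL51. Pseudocount and voom moved the descriptive log2 differences of low genes, such as GJA3 in DLD1 (3.08 and 3.40 against 1.81) and C1orf116 in HCT116 (2.62 and 2.79 against 1.80). Of 170 counts of passing genes under all alternatives, 18 moved by over 1.5 times or to or from 0.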
